A study of Mus musculus with 6 samples.

Results

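Complex I, the NADH:ubiquinone oxidoreductase of the inner mitochondrial membrane, was examined through the 45 rows, of 23420 gene rows, whose symbol begins with Nduf. They comprised 36 structural subunits, of which 7 were core and 29 accessory, 7 assembly factors (the Ndufaf genes), and the pair Ndufa4 and Ndufa4l2. Ndufa4 was first described as a complex I subunit and is now assigned to complex IV, so this pair was kept apart from the subunits. RNA came from TP-DSCs and DP-DSCs, 2 subpopulations of dysplastic stem cells sorted from the mouse dysplastic organoid line Meta4, an epithelial culture, with 3 libraries each. TP and DP are understood here as triple and double positive for sort markers (CD133 and CD166, with CD44v6 added in TP-DSCs). The labels do not spell this out, and the reading is background on the study. They also give no treatment, genotype, strain or age. All 6 libraries come from the same organoid line. The labels call the samples independent without saying whether the cultures were separate, so each p-value weighs a difference only against library-to-library spread, part of which may be technical. Replicate 1 of each group carries the number 3840 in its library name, and replicates 2 and 3 carry 4140. The labels do not say what these numbers mean, and they are read here as submissions for sequencing.

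Complex I takes electrons from NADH, passes them along a chain of iron-sulfur clusters to ubiquinone, and pumps protons across the inner membrane. Its matrix arm holds the redox centres and its membrane arm the proton channels. The nuclear core subunits carry the cofactors, the accessory subunits surround and stabilise them, and the assembly factors help to build or modify the complex without staying in it. The roles given below for single subunits and factors are known mainly from human and bovine complex I. The core subunits of the membrane arm are encoded in mitochondrial DNA and were not analysed here.

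Gene reads numbered 17015581 to 31068454 per TP-DSC library and 27027919 to 32671039 per DP-DSC library. Genes with at least 1 read numbered 10571 to 10982 in TP-DSC libraries and 12504 to 14434 in DP-DSC libraries. Reads in no gene made up 16.19 to 20.27% in TP-DSCs and 14.14 to 15.4% in DP-DSCs. The part of these library differences in the results was not tested. All 5 epithelial markers (Epcam, Cdh1, Krt8, Krt18 and Krt19) had at least 691.1 CPM in every library, where CPM is the count scaled to a common total of gene reads, and their summed CPM was 7450 to 9030 in TP-DSCs and 7980 to 9760 in DP-DSCs. Endothelial markers summed to 0 in TP-DSCs and 0.123 to 1.15 CPM in DP-DSCs. Immune markers summed to 0 to 17.3 CPM in TP-DSCs and 5.14 to 47.5 CPM in DP-DSCs, stromal markers to 0 to 2.9 CPM in TP-DSCs and 0.704 to 3.19 CPM in DP-DSCs, and muscle markers to 0 to 5.79 CPM in TP-DSCs and 0.0306 to 0.999 CPM in DP-DSCs. Among markers of other gastric cells, the parietal gene Atp4a had 0 to 8.297 CPM in TP-DSCs and 0 to 2.209 CPM in DP-DSCs, chief cell genes (Gif and Pgc) to 0 to 66.9 CPM in TP-DSCs and 0.851 to 142 CPM in DP-DSCs, and tuft cell genes to 0 to 104 CPM in TP-DSCs and 5.49 to 69.4 CPM in DP-DSCs. Cd3e, Pecam1, Col1a2, Atp4b and the chief cell gene Pga5 were listed at 0 in all 6 libraries. In bulk samples, fewer cells of a type and less RNA per cell cannot be told apart.

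Promoter sequence from RefSeq (GRCm38.p6), running from 250 bases before to 50 bases after the gene start, was matched to 39 of the 45 genes. The 4 windows printed here belong to the genes with an entry that had the smallest p in each direction of TP-DSCs against DP-DSCs, namely Ndufaf4 and Ndufs6 (upward) and Ndufs8 and Ndufs3 (downward). Capitals mark matches, on either strand, to letters bound by factors known to regulate respiratory genes. The letters searched were CGCATGCGC for NRF1, CCGGAAGT for ETS factors such as GABP, AAGATGGC for YY1, TCAAGGTCA for ERR factors and GGGGCGGGG for Sp and KLF factors. Each window is given 5′ to 3′ on the strand of its gene.
Ndufaf4: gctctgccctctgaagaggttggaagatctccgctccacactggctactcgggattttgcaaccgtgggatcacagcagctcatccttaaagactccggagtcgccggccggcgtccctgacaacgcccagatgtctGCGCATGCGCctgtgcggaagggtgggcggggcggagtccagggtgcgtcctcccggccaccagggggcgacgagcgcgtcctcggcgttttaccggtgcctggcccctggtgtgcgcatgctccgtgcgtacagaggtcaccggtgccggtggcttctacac
Ndufs6: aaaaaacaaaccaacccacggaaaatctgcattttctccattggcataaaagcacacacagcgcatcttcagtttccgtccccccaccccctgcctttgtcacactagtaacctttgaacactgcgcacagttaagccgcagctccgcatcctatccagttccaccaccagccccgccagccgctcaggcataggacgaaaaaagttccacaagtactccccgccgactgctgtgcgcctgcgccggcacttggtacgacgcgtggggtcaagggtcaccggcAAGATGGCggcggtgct
Ndufs8: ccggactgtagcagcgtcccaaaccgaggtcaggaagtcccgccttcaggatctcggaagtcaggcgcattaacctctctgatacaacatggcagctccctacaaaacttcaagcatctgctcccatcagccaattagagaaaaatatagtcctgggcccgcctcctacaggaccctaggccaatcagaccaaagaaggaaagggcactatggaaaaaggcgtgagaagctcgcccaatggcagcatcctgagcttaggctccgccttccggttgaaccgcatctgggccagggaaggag
Ndufs3: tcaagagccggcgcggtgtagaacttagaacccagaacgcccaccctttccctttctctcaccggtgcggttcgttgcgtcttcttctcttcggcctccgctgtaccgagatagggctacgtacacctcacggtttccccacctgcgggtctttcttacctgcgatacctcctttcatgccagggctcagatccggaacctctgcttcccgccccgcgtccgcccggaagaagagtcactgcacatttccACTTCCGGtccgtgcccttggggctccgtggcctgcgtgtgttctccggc
The windows lie at chr4:24897833-24898132 (Ndufaf4, plus strand), chr13:73328433-73328732 (Ndufs6, minus strand), chr19:3912725-3913024 (Ndufs8, minus strand) and chr2:90904672-90904971 (Ndufs3, minus strand). The Ndufaf4 window held the NRF1 letters on both strands, overlapping, the Ndufs6 window the YY1 letters and the Ndufs3 window the ETS letters, while the Ndufs8 window held none of the 5. Across the 39 matched genes, the YY1 letters were found in 7, which is 17.9%, against 3.19% of all 27025 genes in the table. All 7 were subunits, namely Ndufa3, Ndufa9, Ndufb8, Ndufc1, Ndufs4, Ndufs6 and Ndufs7. The NRF1 letters were found in the subunits Ndufa8 and Ndufa11 and the assembly factors Ndufaf4 and Ndufaf5, which is 10.3% against 1.95% of all genes. The Sp and KLF letters stood in 15.4% of the matched genes against 12.9% of all genes, the ETS letters in 2.56% against 4.31%, and the ERR letters in 0% against 0.466%. These shares describe letters in a window and were not tested.

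Complex I transcripts were present at readily measured levels in both populations, and 43 of the 45 genes passed the filter on low counts. The other two, Ndufs5 (a membrane arm subunit) and Ndufa4l2, were listed at 0 in all 6 libraries. Of the letters of the longest Ndufs5 transcript, taken as runs of 50 bases, 31.1% also occur in BC002163, and that row held 8 to 128 reads. The ribosomal protein gene Rpl26, chosen after its values were seen, was likewise listed at 0 in all 6 libraries. A gene listed at 0 is reported as such here and not as silent.

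Levels per transcript length were compared as TPM, the length-scaled counterpart of CPM, computed from the counts over the longest protein-coding transcript of each gene. Ndufa7, a matrix arm accessory subunit, was the highest subunit, with a mean of 556.9 TPM over the 6 libraries and a range of 457.6 to 753.7 TPM. Ndufc2, a membrane arm subunit, averaged 455.5 TPM with a range of 271.2 to 582.4 TPM, and Ndufa6, an accessory subunit that anchors acyl carrier protein, averaged 449.0 TPM with a range of 278.3 to 677.6 TPM. The ranges of these 3 genes overlap, so their order is not resolved. The lowest subunits were Ndufb2 with 26.88 TPM, Ndufab1 (mitochondrial acyl carrier protein) with 74.68 TPM and Ndufb4 with 85.13 TPM. Of the runs of 50 bases of the Ndufb4 transcript, 37% also occur in Ndufb4c, Gm16056 and Gm20519, so its count is uncertain. The Ndufb2 and Ndufab1 values rest on long reference transcripts of 4371 and 3479 bases, where the shortest coding transcripts have 455 and 452 bases, so their levels could be several times higher. Among core subunits, Ndufs1 averaged 125.1 TPM, Ndufv1 240.1 TPM and Ndufs7 240.5 TPM. Ndufa4 stood above every subunit, with a mean of 904.5 TPM. Apart from Ndufb2, every tested subunit had a higher mean than the highest Ndufaf gene, Ndufaf2 at 47.76 TPM. The lowest Ndufaf gene was Ndufaf6 at 17.04 TPM. This order also depends on the transcript taken, since the lengths used for Ndufaf4 and Ndufaf7 were 3632 and 2706 bases, and both genes have coding transcripts several times shorter, of 673 bases for Ndufaf4.

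**Figure D1:**
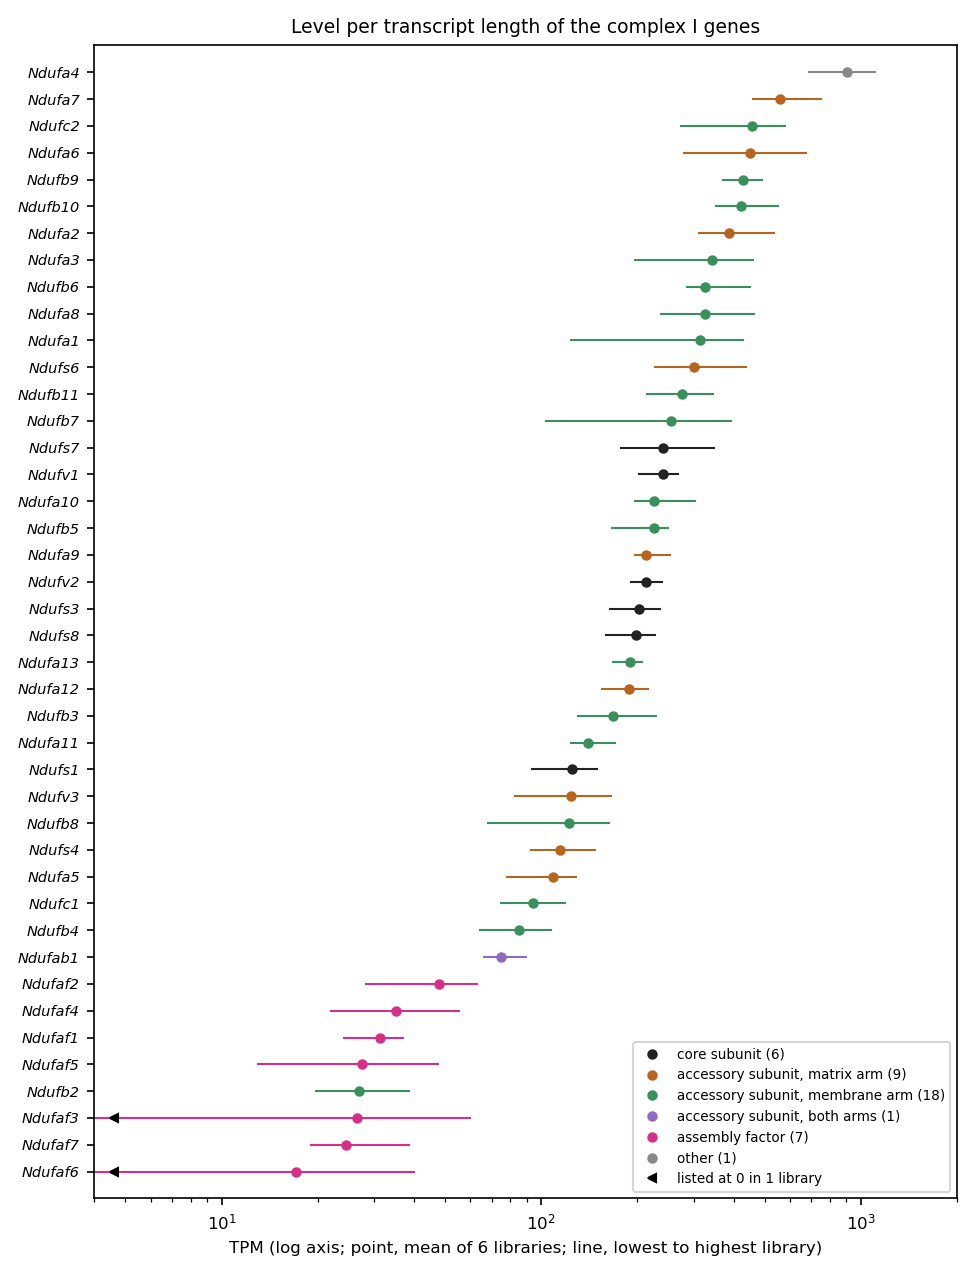
Level per transcript length of 42 complex I genes with reads, in TPM on a log axis. Points are means of the 6 libraries, lines run from the lowest to the highest library, and left-pointing triangles mark a gene listed at 0 in 1 library. The 7 assembly factors lie between 17.04 and 47.76 TPM, and all subunits except Ndufb2 lie above them.

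The main comparison set complex I genes of TP-DSCs against those of DP-DSCs. None passed the threshold: edgeR's quasi-likelihood test with Benjamini-Hochberg adjustment called 0 of the 43 tested genes at 0.05, against 0% of all 11925 genes tested, and the smallest adjusted p among them was 0.532. At an unadjusted p under 0.05 there were 2, Ndufaf4 and Ndufs6, both with higher values in TP-DSCs, against 6.1% of all genes (1.43% higher and 4.67% lower). DESeq2 called 94 genes on the same set and 267 when given every gene with reads (0.788% and 1.76%), limma-voom called 0%, and none of these calls was a complex I gene. The 3 TP-DSC libraries lay wholly above the 3 DP-DSC libraries for 3 genes and wholly below for another 3 by normalised CPM. That is 14% of the complex I genes, against 12.9% of all genes tested (4.03% above and 8.88% below), so separation was about as common as in the background.

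Among the genes that lay higher, Ndufaf4 had the smallest p. Its product stabilises intermediates of the ubiquinone-binding module together with Ndufaf3, and the gene lies on chromosome 4 at 24898083 to 24905001 (GRCm38). Ndufaf4 had 61.0, 95.03 and 66.47 CPM in TP-DSC replicates 1, 2 and 3, against 38.63, 54.15 and 43.84 CPM in DP-DSC replicates 1, 2 and 3. All TP-DSC libraries were above all DP-DSC libraries, and in each group the highest was replicate 2. The log2 fold change of Ndufaf4 was 0.69 ± 0.24 (SE), with an edgeR adjusted p of 0.532. It was 0.69 within submission 3840, where each group has 1 library, and 0.67 within submission 4140. With DESeq2 on every gene with reads the adjusted p of Ndufaf4 was 0.197. Across the other alternatives its log2 fold change stayed between 0.50 and 0.79 and the adjusted p between 0.255 and 1.

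Ndufs6, a zinc-binding accessory subunit of the matrix arm that joins late in assembly, had 100.4, 130.1 and 149.3 CPM in TP-DSCs, against 86.37, 93.69 and 82.47 CPM in DP-DSCs. The DP-DSC libraries were close together, and the lowest TP-DSC library, replicate 1, was only slightly above them. The log2 fold change of Ndufs6 was 0.51 ± 0.18, with an edgeR adjusted p of 0.562. Ndufa5, an accessory subunit of the matrix arm, had 54.03, 53.19 and 49.25 CPM in TP-DSCs, against 38.2, 41.57 and 32.82 CPM in DP-DSCs. Its groups did not overlap either, and its log2 fold change was 0.47 ± 0.24. Ndufa2, an accessory subunit with a thioredoxin-like fold, had 128.8, 94.33 and 138 CPM in TP-DSCs, against 86.33, 84.23 and 97.2 CPM in DP-DSCs. TP-DSC replicate 2 fell among the DP-DSC libraries for Ndufa2, whose log2 fold change was 0.42 ± 0.22. The edgeR adjusted p was 0.999 for both Ndufa5 and Ndufa2.

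These 3 accessory subunits all belong to the matrix arm. Of the 9 tested accessory subunits of that arm, 8 had a log2 fold change above 0, with a median of 0.21, against a median of -0.02 over all 11925 genes. Ndufa12, which takes the place of the assembly factor Ndufaf2 in the finished complex, had a log2 fold change of 0.23 ± 0.20. Ndufs4, whose loss in mice is a standard model of Leigh syndrome, had one of 0.21 ± 0.28. The exception was Ndufa6, with 160.6, 77.11 and 93.95 CPM in TP-DSCs, against 195.3, 77.44 and 156.8 CPM in DP-DSCs. Its libraries spread widely in both groups, and its log2 fold change was -0.38 ± 0.45. Of this set only Ndufs6 passed an unadjusted p of 0.05. The median difference of log2 CPM of the set was 0.33 within submission 3840 and 0.087 within submission 4140, and the set was singled out after its leading genes were seen.

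Most of the 7 core subunits had the opposite sign. A log2 fold change below 0 was seen in 6 and above 0 in 1, with a median of -0.16. Of all 11925 genes, 6173 were below 0. No core subunit passed the test, and the smallest edgeR adjusted p among them was 0.987. Ndufs7 was near 0, at -0.03 ± 0.38. Without TP-DSC replicate 3 the log2 fold changes of Ndufs1, Ndufs7 and Ndufv2 were above 0, at 0.29, 0.20 and 0.069. Those of Ndufs3, Ndufs8 and Ndufv1 stayed below 0, at -0.24, -0.25 and -0.088. Ndufs8, which carries iron-sulfur clusters near the ubiquinone-binding pocket, had 80, 91.03 and 82.46 CPM in TP-DSCs, against 95.29, 102 and 111.2 CPM in DP-DSCs. All TP-DSC libraries were below all DP-DSC libraries, and the log2 fold change of Ndufs8 was -0.30 ± 0.17.

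Ndufs3, another core subunit of the ubiquinone module, had 107.1, 80.81 and 76.28 CPM in TP-DSCs, against 121.1, 104.5 and 112.4 CPM in DP-DSCs. TP-DSC replicate 1 lay among the DP-DSC libraries, and the log2 fold change of Ndufs3 was -0.36 ± 0.24. Runs of 50 bases shared with Gm12251, Kbtbd4 and Gm11927 make up 39.7% of the Ndufs3 transcript, so its count is uncertain. Ndufv1, which binds flavin and receives the electrons of NADH, had 168.5, 201.7 and 169.7 CPM in TP-DSCs, against 218.4, 180.3 and 193.5 CPM in DP-DSCs. Ndufv2, its iron-sulfur partner, had 205.7, 151.4 and 148.3 CPM in TP-DSCs, against 177.0, 159.8 and 183.6 CPM in DP-DSCs. Both overlapped between the groups, with log2 fold changes of -0.16 ± 0.18 for Ndufv1 and -0.05 ± 0.23 for Ndufv2. Ndufs1, the largest core subunit, had 185.1, 188.5 and 110.0 CPM in TP-DSCs, against 167.6, 160.8 and 135.8 CPM in DP-DSCs. It was the single core subunit with a log2 fold change above 0, at 0.05 ± 0.26, and its lowest library was TP-DSC replicate 3.

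**Figure D2:**
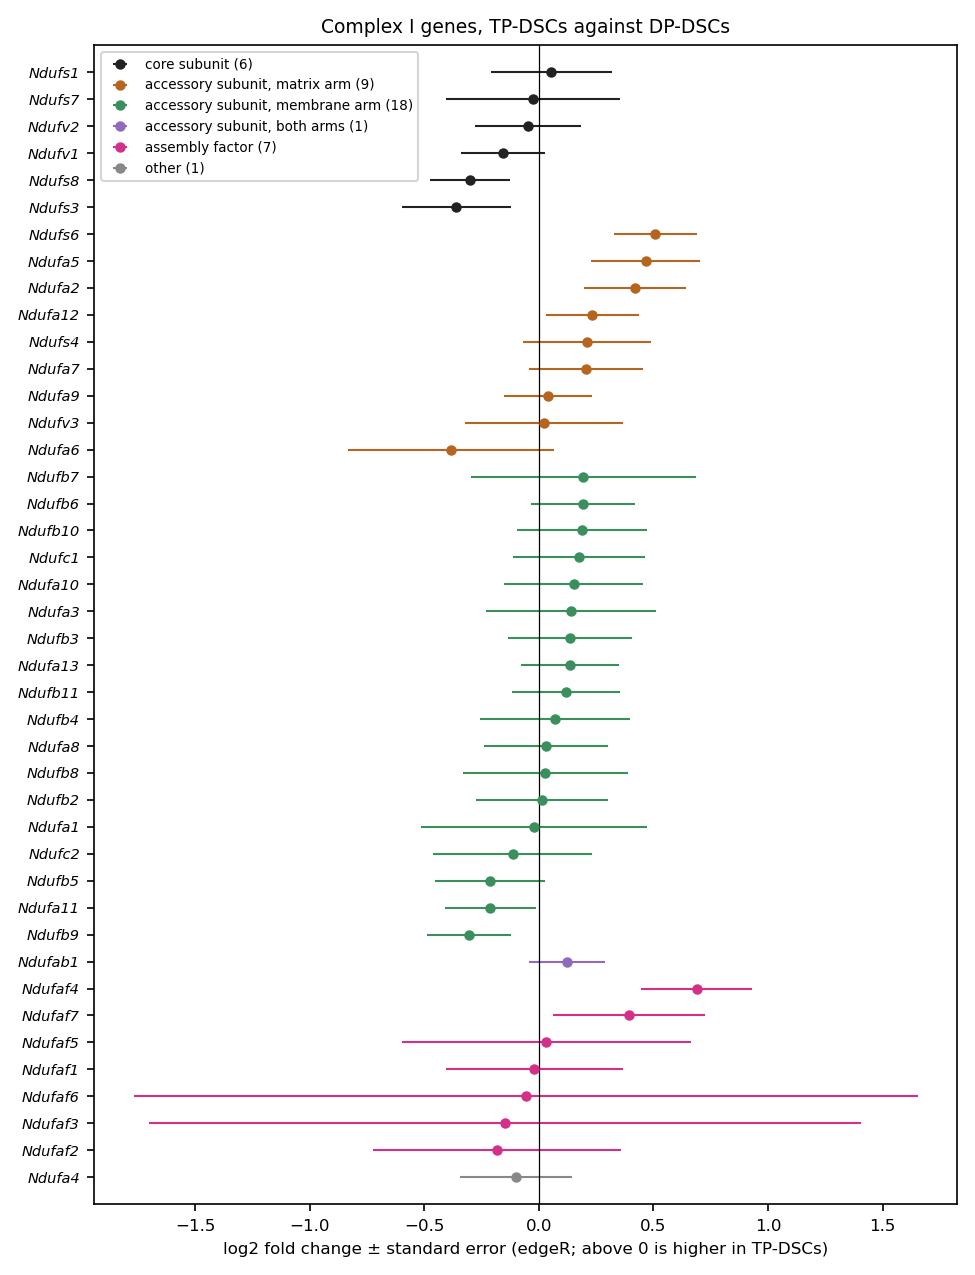
Log2 fold change of TP-DSCs against DP-DSCs for 42 of the 43 tested complex I genes, with standard errors, ordered by class and then by value. Of the core subunits drawn 5 of 6 lie below 0 and of the matrix arm accessory subunits 8 of 9 lie above 0, none past an adjusted p of 0.05 in edgeR.

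The membrane arm gave no separated gene above DP-DSCs. Of its 18 tested accessory subunits, 13 had a log2 fold change above 0 and 5 below, with a median of 0.09, and the values ran no higher than 0.19 (Ndufb7). Ndufa11, a subunit of the membrane arm, had 56.79, 58.71 and 53.85 CPM in TP-DSCs, against 63.11, 70.67 and 61.01 CPM in DP-DSCs. These libraries did not overlap, and the log2 fold change of Ndufa11 was -0.21 ± 0.20. Ndufb9 had 131.0, 122.6 and 131.1 CPM in TP-DSCs, against 169.9, 142.8 and 156.8 CPM in DP-DSCs. The Ndufb9 groups did not overlap in CPM but did after normalisation, and its log2 fold change was -0.31 ± 0.18. Ndufab1, which sits in both arms, had a log2 fold change of 0.12 ± 0.17, and Ndufa4 one of -0.10 ± 0.25.

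**Figure D3:**
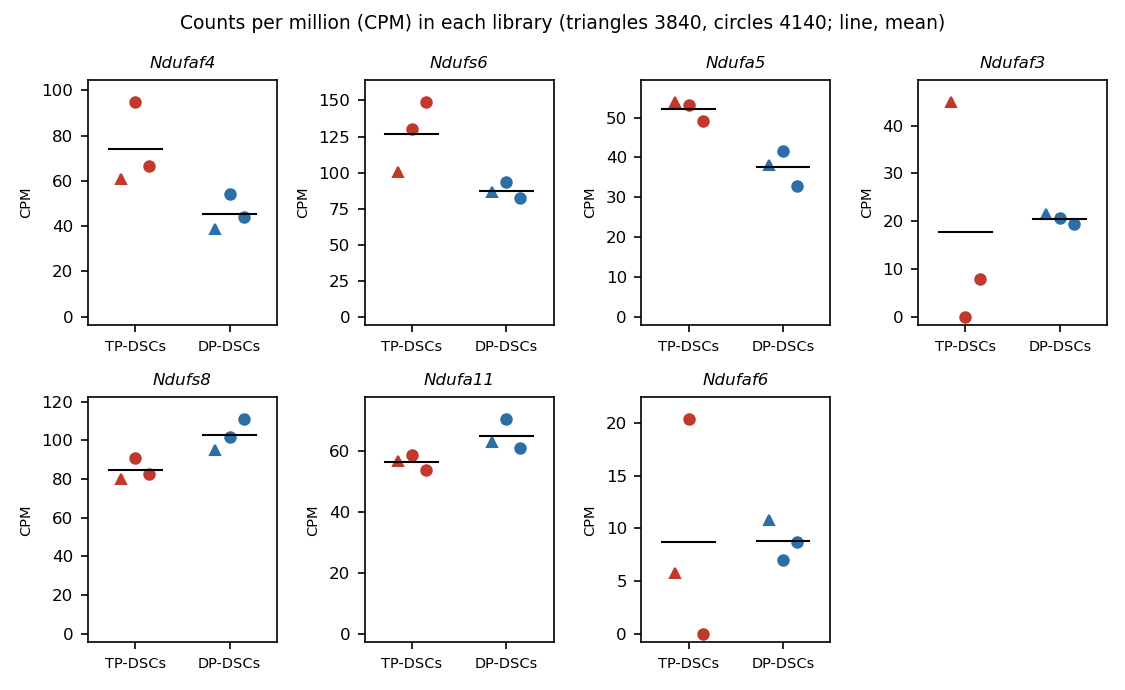
CPM in each library for 5 complex I genes whose groups did not overlap and for the assembly factors Ndufaf3 and Ndufaf6. Triangles are submission 3840, circles are submission 4140 and the line is the group mean. Ndufaf3 and Ndufaf6 each have a TP-DSC library at 0 and another that exceeds all those of DP-DSCs.

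Ndufaf3, Ndufaf6 and Ndufaf5 spread most among the assembly factors, with SDs of log2 CPM of 4.83, 4.27 and 0.819 in TP-DSCs, while the median SD in TP-DSCs was 0.408 for the 7 factors and 0.406 for the subunits. Ndufaf3, the partner of Ndufaf4, had 45.09, 0 and 7.821 CPM in TP-DSCs, against 21.45, 20.75 and 19.42 CPM in DP-DSCs. Those TP-DSC values correspond to 1125, 0 and 243 reads, so the DP-DSC libraries agreed closely while the TP-DSC libraries ran from none to more than any DP-DSC library. The log2 fold change of Ndufaf3 was -0.15 ± 1.55. Ndufaf6, an early assembly factor, had 5.812, 20.39 and 0 CPM in TP-DSCs, against 10.77, 7.009 and 8.695 CPM in DP-DSCs. Its zero fell in TP-DSC replicate 3 while that of Ndufaf3 fell in TP-DSC replicate 2, and the log2 fold change of Ndufaf6 was -0.06 ± 1.71. With limma-voom the log2 fold changes were -2.82 for Ndufaf3 and -3.39 for Ndufaf6, with adjusted p of 0.687 and 0.682.

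Ndufaf5, which hydroxylates an arginine of Ndufs7, had 7.575, 26.27 and 12.94 CPM in TP-DSCs, against 15.74, 12.06 and 16.35 CPM in DP-DSCs. Its TP-DSC libraries included both the lowest and the highest of the 6. Ndufaf7, a methyltransferase, had 25.85, 34.62 and 46.9 CPM in TP-DSCs, against 28.16, 24.24 and 27.38 CPM in DP-DSCs. Replicates 2 and 3 of TP-DSCs were above every DP-DSC library and replicate 1 was not. The log2 fold change of Ndufaf7 was 0.39 ± 0.33. Ndufaf1, a factor for membrane arm intermediates, had 17.84, 22.8 and 24.62 CPM in TP-DSCs, against 20.28, 21.85 and 22.94 CPM in DP-DSCs, and Ndufaf2, a late chaperone, had 9.619, 14.57 and 19.18 CPM in TP-DSCs, against 15.52, 14.29 and 18.17 CPM in DP-DSCs. The Ndufaf1 and Ndufaf2 groups overlapped, with log2 fold changes of -0.02 ± 0.39 for Ndufaf1 and -0.18 ± 0.54 for Ndufaf2. Over the 7 assembly factors the median log2 fold change was -0.02, with 3 above 0 and 4 below.

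Summed over the 7 assembly factors, CPM was 172.79, 213.69 and 177.93 in TP-DSCs, against 150.55, 154.36 and 156.8 in DP-DSCs. The sums did not overlap, and their means were 188.1 ± 22.3 in TP-DSCs and 153.9 ± 3.15 in DP-DSCs (SD, n = 3 each), a log2 ratio of 0.29. The separation in CPM rested on Ndufaf4, the most abundant of the 7 in CPM. In TPM the sums overlapped, at 187.95, 249.7 and 217.1 in TP-DSCs, against 195.58, 202.13 and 205.75 in DP-DSCs, with TP-DSC replicate 1 below every DP-DSC library. Without Ndufaf4 the CPM sums were 111.78, 118.66 and 111.46 CPM in TP-DSCs, against 111.92, 100.21 and 112.96 CPM in DP-DSCs, which overlap, with a log2 ratio of 0.07. Summed over the 36 subunits, CPM was 4577.4, 4220.1 and 3410.1 in TP-DSCs, against 4281.3, 3769.2 and 4048.6 in DP-DSCs. TP-DSCs held both the highest and the lowest sum, and the means of 4069 ± 598 in TP-DSCs and 4033 ± 256 in DP-DSCs (SD, n = 3 each) differed by a log2 ratio of 0.01. The core subunits alone summed to 1185.4, 1084.7 and 877.71 CPM in TP-DSCs, against 1243.1, 1124.5 and 1212.9 CPM in DP-DSCs. Their means were 1049 ± 157 in TP-DSCs and 1194 ± 61.6 in DP-DSCs, and the groups overlapped. No p is given for these sums, since they are scores over the chosen genes.

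**Figure D4:**
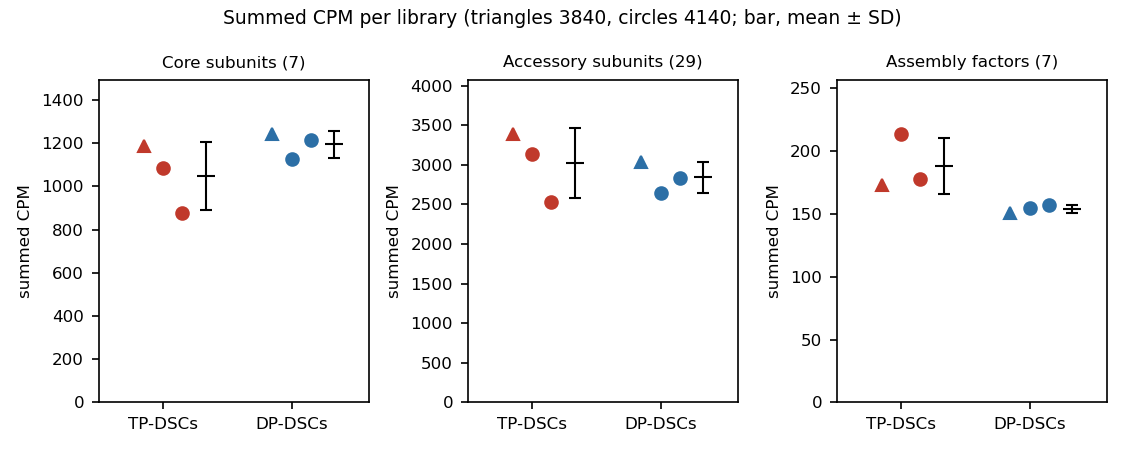
Summed CPM per library for the core subunits, the accessory subunits and the assembly factors. Points are libraries (triangles 3840, circles 4140) and bars are the mean ± SD of 3 libraries. Only the assembly factor sums do not overlap, with TP-DSCs at 172.79 to 213.69 and DP-DSCs at 150.55 to 156.8, and without Ndufaf4 they do.

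TP-DSC libraries differed more among themselves than DP-DSC libraries did. The SD of log2 CPM was larger in TP-DSCs for 36 of the 43 genes, which is 83.7%, against 75% of all genes tested. Its median was 0.407 in TP-DSCs and 0.197 in DP-DSCs for complex I genes, and 0.558 in TP-DSCs and 0.309 in DP-DSCs for all genes. Within each group the same library tended to be extreme. TP-DSC replicate 1 was the highest TP-DSC library for 23 of 35 subunits, and TP-DSC replicate 3 the lowest for 26. DP-DSC replicate 1 was the highest DP-DSC library for 23, and DP-DSC replicate 2 the lowest for 24. The membrane arm subunits Ndufa1 and Ndufb7 had the widest spread among subunits, with SDs of log2 CPM of 1.13 and 1.14 in TP-DSCs and 0.233 and 0.291 in DP-DSCs. In both, TP-DSC replicate 3 was the low library, at 23.01 CPM for Ndufa1 and 28.49 CPM for Ndufb7.

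Both high libraries, replicate 1 of each group, belong to submission 3840, so submissions were compared with group in the fit. Some markers of other cells moved with the submission. Pgc was at 0 in all 4 libraries of 4140, against 26.17 CPM in TP-DSCs and 44.55 CPM in DP-DSCs of 3840. Gif, which the chief and parietal lists share, had 0 and 0 CPM in TP-DSCs and 2.571 and 0.851 CPM in DP-DSCs of 4140, against 40.76 CPM in TP-DSCs and 97.75 CPM in DP-DSCs of 3840. Cd68, a macrophage marker, had 4.584 and 0 CPM in TP-DSCs and 5.142 and 12.8 CPM in DP-DSCs of 4140, against 17.27 CPM in TP-DSCs and 47.34 CPM in DP-DSCs of 3840. The tuft marker Dclk1 mostly went the other way, with 0 and 90.77 CPM in TP-DSCs and 44.17 and 67 CPM in DP-DSCs of 4140. In 3840 it had 9.379 CPM in TP-DSCs and 2.945 CPM in DP-DSCs. The part of these markers in the differences between submissions was not tested. Of the 35 tested subunits, 32 had a lower fitted value in 4140 than in 3840, against 50.3% of all genes, and the median log2 difference was -0.26, against -0.004 over all genes. The assembly factors did not share that sign, with 6 of 7 above 0 and a median of 0.14. By the adjusted p, edgeR called 0 complex I genes and 0% of all genes, with a smallest adjusted p of 0.352 among complex I genes. At an unadjusted p under 0.05 there were 6 complex I genes, all subunits and all lower in 4140, against 5.74% of all genes lower and 3.56% higher. DESeq2 called 4 complex I genes, Ndufs7, Ndufa10, Ndufb10 and Ndufa6, all lower in 4140, against 9.87% of all genes, so the share of complex I genes called was near the background. The 4 libraries of 4140 lay wholly below both libraries of 3840 for 11 complex I genes and wholly above for 0, against 13.8% and 9.23% of all genes.

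Ndufs7, the core subunit with the last iron-sulfur cluster before ubiquinone, had the smallest p between submissions. In 4140 it had 81.69 and 78.34 CPM in TP-DSCs and 109.1 and 102.0 CPM in DP-DSCs, against 173.9 CPM in TP-DSCs and 131.9 CPM in DP-DSCs of 3840. Every 4140 library was below both 3840 libraries, and the log2 difference was -0.88 ± 0.23 with an edgeR adjusted p of 0.352. Ndufa10, an accessory subunit of the membrane arm, had 201.2 and 175.5 CPM in TP-DSCs and 176.8 and 200.0 CPM in DP-DSCs of 4140, against 310.8 CPM in TP-DSCs and 241.3 CPM in DP-DSCs of 3840. Its log2 difference was -0.68 ± 0.19, and again no 4140 library reached a 3840 library. Ndufb10, another membrane arm subunit, had 149.2 and 116.8 CPM in TP-DSCs and 129.1 and 123.8 CPM in DP-DSCs of 4140, against 204.9 CPM in TP-DSCs and 160.1 CPM in DP-DSCs of 3840, a log2 difference of -0.62 ± 0.18. Ndufb2, Ndufaf4 and Ndufs6 had the smallest p among genes with a positive difference, and their log2 differences of 0.30 ± 0.30, 0.23 ± 0.25 and 0.11 ± 0.19 did not pass.

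**Figure D5:**
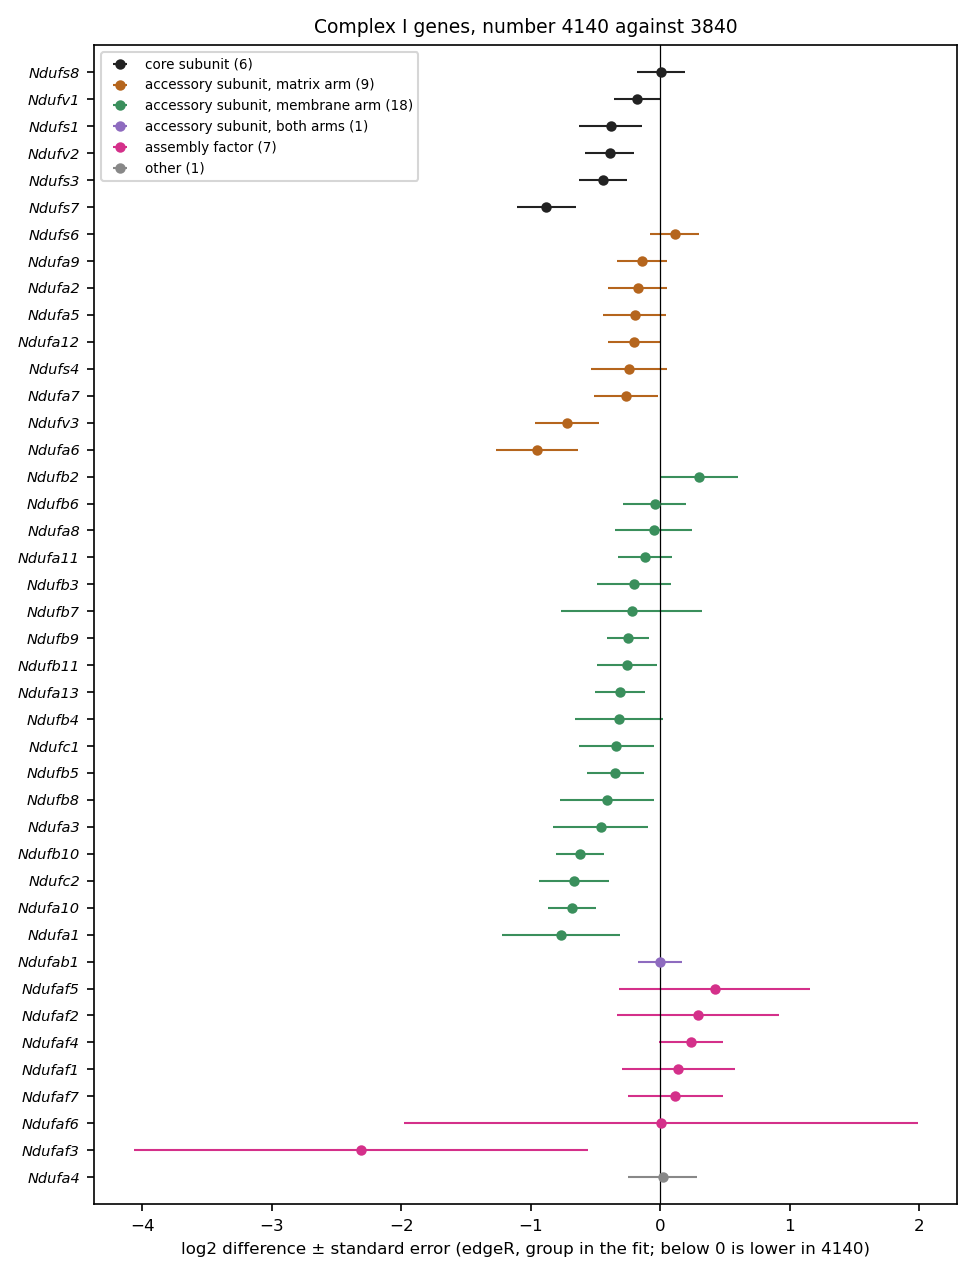
Log2 difference of submission 4140 against 3840 for 42 of the 43 tested complex I genes, with standard errors, from the edgeR fit that also holds group. Of the subunits drawn, 31 of 34 lie below 0 and of the assembly factors 6 of 7 lie above 0, while 50.3% of all genes lie below 0.

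With the submissions taken apart, the subunits lay above the median of all genes in both. Their median difference of log2 CPM, TP-DSCs minus DP-DSCs, was 0.19 within 3840 (23 of 35 above 0) and -0.05 within 4140 (13 of 35 above 0), beside -0.06 within 3840 and -0.16 within 4140 over all 11925 genes, of which 5427 and 4719 were above 0. Submission 3840 has 1 library of each group, so that value has no replicate check. For the core subunits the median was -0.15 within 3840, where 3 of 7 were above 0, and -0.34 within 4140, where 0 of 7 were. A test of whether the TP-DSC difference itself differed between submissions called 0 complex I genes and 0% of all genes in edgeR, with 1 complex I gene at an unadjusted p under 0.05 against 6.61% of all genes. That gene was Ndufs7, whose log2 difference between the groups was 0.43 within 3840 and -0.44 within 4140, with an edgeR adjusted p of 0.738. DESeq2 called Ndufs7 in that test, against 5.96% of all genes.

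The other respiratory complexes, taken as lists, did not pass the test in any gene either. The complex IV list includes Ndufa4, its single gene below 0, with a log2 fold change of -0.10. Between submissions Ndufa4 was its single gene above 0, at 0.018. The nuclear genes of complex IV had a median log2 fold change of 0.19 with 10 of 11 above 0, those of complex III 0.17 with 6 of 9, complex II 0.08 with 6 of 8 and ATP synthase 0.04 with 8 of 14, beside -0.02 over all genes. Uqcrc1, a complex III core subunit, had 376.2, 309.2 and 226.3 CPM in TP-DSCs, against 401.0, 382.4 and 433.4 CPM in DP-DSCs. Cox6b1, a complex IV subunit, had 512.2, 511.3 and 315.2 CPM in TP-DSCs, against 349.7, 344.7 and 334.2 CPM in DP-DSCs. For both genes TP-DSC replicate 3 was the low TP-DSC library, as for most complex I subunits, and lay below every DP-DSC library. For Uqcrc1 all TP-DSC libraries lay below all DP-DSC libraries in CPM, but the groups overlapped after normalisation. The log2 fold changes were -0.42 ± 0.26 for Uqcrc1 and 0.37 ± 0.25 for Cox6b1. Between submissions, 9 of 9 complex III genes, 10 of 11 complex IV genes and 11 of 14 ATP synthase genes were lower in 4140, with medians of -0.38, -0.32 and -0.22, and 5 of 8 complex II genes, with a median of -0.24. Lower values in 4140 were thus seen in the lists of other complexes as well. Complex I assembly factors without an Nduf symbol (10 tested) had a median log2 fold change of -0.08 between the groups, with 5 above 0 and 5 below, and none past the threshold. Tmem186 was the single member of that list whose groups did not overlap, with 28.46, 28.03 and 25.62 CPM in TP-DSCs, against 18.35, 24.61 and 18.39 CPM in DP-DSCs.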

How the data were processed

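The deposited files give, per library, 1 whole-number read count per gene symbol, and the values show no normalisation by the authors. The libraries were polyA-selected and stranded, per the labels' protocols. The submitters' processing notes name STAR 2.7.3a, Partek, DESeq2 3.5 and build mm10. Which tool counted, and with which strand setting, is not given in the sources used here, so overlapping and near-identical genes are uncertain. Rows for reads in no gene (14.14 to 20.27%) and ambiguous reads (1.091 to 1.864%) were left out of totals and tests.

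Counts were fitted over all genes in R 4.3.3 with edgeR 4.0.16 (filterByExpr, minimum count 10 and total 15, TMM scaling, quasi-likelihood F test, two-sided, Benjamini-Hochberg adjustment over the 11925 genes tested). Terms were group, group with submission, or their interaction (2 residual degrees of freedom). SE is the log2 fold change over the square root of F. Positive values mean higher in TP-DSCs, or in 4140. CPM is over gene reads without TMM, while overlap of groups used TMM-scaled CPM. Within-submission differences used a prior count of 2. TPM, positions and shared runs of 50 bases used GENCODE M21 (GRCm38). DESeq2 1.42.0 and limma-voom (limma 3.58.1) were alternatives, beside other scalings, filters, the submission as a block and leaving out each library. The fits were tested on simulated data. Replicates were numbered by accession, so the numbers pair nothing. Replicates of a group differed by a chi-square of 103.3 to 303.6 per degree of freedom, so none was counted as a duplicate.

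Members and lists were chosen with earlier results of these data known. Genes named are the 5 smallest p in each direction, those with separated groups, the core subunits, all Ndufaf genes, Ndufa4 and Ndufa4l2, the 3 highest and 3 lowest subunits per length, the 3 smallest p in each direction between submissions, and up to 3 genes per other list. Ndufa12, Ndufs4, Ndufa1, Ndufb7, Rpl26 and BC002163 were named after their values were seen. Of the genes these rules name, 1 is not reported here, though counts, sums and medians include it.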

Additional observations from a re-analysis of the deposited data

How the results depend on the processing

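No complex I gene passed an adjusted p of 0.05 between TP-DSCs and DP-DSCs under any alternative run, including each library left out. Of 446 log2 fold changes of 28 complex I genes under 16 settings, 405 kept their sign and 41 did not. Ndufaf4, Ndufs6, Ndufa5, Ndufa2, Ndufs3, Ndufs8, Ndufb9 and Ndufa11 kept it throughout, as did the others not named next. Signs turned for Ndufaf1 with RLE factors (0.0031), library size only (0.0042), reads in all 6 libraries (0.012), DESeq2 (0.0033) and submission 4140 alone (0.020); for Ndufb2 with upper-quartile factors (-0.0089), no filter (-0.0099) and limma-voom (-0.097); for Ndufaf5 with limma-voom (-0.23) and the submission block (-0.054); for Ndufb4 (-0.034) and Ndufs1 (-0.026) with limma-voom; and in submission 4140 alone for Ndufa10 (-0.065), Ndufs1 (-0.048) and Ndufaf6 (0.31). Ndufaf3 turned to 0.44 without TP-DSC replicate 2 and 0.23 without TP-DSC replicate 3. It reached -1.34 with the submission block and -2.41 in submission 4140 alone. The cause was not tested. Leaving out each library gave ranges of -0.22 to 0.34 (Ndufa10), -0.26 to 0.100 (Ndufa4), -0.086 to 0.042 (Ndufaf1), -2.47 to 0.44 (Ndufaf3), -0.54 to 0.32 (Ndufaf5), -1.52 to 0.53 (Ndufaf6), -0.14 to 0.39 (Ndufb10), -0.29 to 0.17 (Ndufb2), -0.081 to 0.30 (Ndufb4), -0.54 to 0.16 (Ndufc2), -0.14 to 0.29 (Ndufs1), -0.61 to 0.20 (Ndufs7) and -0.30 to 0.069 (Ndufv2).

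The median of the assembly factors was 0.31 in submission 4140 alone and -0.13 to 0.19 with a library left out, reaching 0.19 without TP-DSC replicate 3. Their summed log2 ratio was 0.12 in TPM and, as chosen after seeing the data, 0.073 without Ndufaf4. The subunit median ran from -0.13 to 0.22 with a library left out, and was -0.13 without TP-DSC replicate 1. Over all genes, DESeq2 called 94 or 267 genes between the groups where edgeR called 0. Genes at an unadjusted p under 0.05 numbered 728. Without TP-DSC replicate 1, 2 or 3 they numbered 1811, 1310 and 1410, and without DP-DSC replicate 1, 2 or 3 they numbered 889, 701 and 619. They numbered 1111 with no filter, 1473 in 4140 alone and 362 of the 9521 genes that had reads in every library. Complex I genes at that level numbered 2, but 4 without TP-DSC replicate 1, 3 with DESeq2 on every gene with reads and 1 in 4140 alone. Without DP-DSC replicate 1, 2 or 3 the complex I genes numbered 0, 1 and 0.

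Between submissions DESeq2 called 4 complex I genes and 1177 genes in all, limma-voom 55, reads in all 6 libraries 64, the fit without group 39 and the fit without DP-DSC replicate 3 gave 7, with 0 complex I genes in the last 4. With library size only the median of all genes moved to 0.13, that of the subunits to -0.13 and that of the assembly factors to 0.27. In the interaction DESeq2 called 1 complex I gene and 711 in all. Scaling without mitochondrially encoded rows was not run, since the totals used here contain none of those rows. No paired analysis was possible because replicate numbers follow accession order and the labels pair no libraries. The submission number, shared by 1 or 2 libraries of each group, was fitted as a block instead and called 0 complex I genes. Apart from values of 0, the lowest count of a tested complex I gene was 145 reads (Ndufaf6, TP-DSC replicate 1). With 3 libraries a group, the spread between libraries limits what can be called.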

Other observations

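Regulators of mitochondrial gene expression, a list of 13 genes, had a median log2 fold change of -0.06 between TP-DSCs and DP-DSCs, with 6 above 0 and 7 below and none past an adjusted p of 0.05. Gabpa, the DNA-binding subunit of GABP, an ETS factor, had 74.23, 52.07 and 94.34 CPM in TP-DSCs, against 36.72, 56.69 and 40.22 CPM in DP-DSCs. Its groups overlapped, and its log2 fold change was 0.72 ± 0.29 with an edgeR adjusted p of 0.729. Polrmt, the RNA polymerase of mitochondria, had 29.3, 24.33 and 36.18 CPM in TP-DSCs, against 37.89, 51.91 and 42.51 CPM in DP-DSCs. All TP-DSC libraries were below all DP-DSC libraries for Polrmt, with a log2 fold change of -0.57 ± 0.28 and an edgeR adjusted p of 0.991. Pprc1, a coactivator of the same pathway, had a log2 fold change of 0.33 ± 0.22.

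The row 1810043H04Rik, an older symbol of the assembly factor Ndufaf8, falls outside the Nduf names. It had 7.736, 63.65 and 6.727 CPM in TP-DSCs, against 15.09, 10.35 and 19.09 CPM in DP-DSCs. TP-DSC replicate 2 alone lay above the DP-DSC libraries, as it did for Ndufaf5 and Ndufaf6. With this row the summed assembly factors had a log2 ratio of 0.34.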
